A study of Homo sapiens with 4 samples.

Results

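The 10 genes described here are 6 genes of the neuroendocrine secretory granule or synaptic vesicle (CHGA, CHGB, SCG2, SCG5, SYP and SYT4) and 4 transcription factors of endocrine and neural lineages (ONECUT2, FOXA2, PROX1 and INSM1). They were taken by name from the count table, where all 10 were found among 57014 named rows. Of these, 6 passed the filter on low counts and were tested; SCG5, FOXA2, PROX1 and INSM1 were too low to judge. The libraries were made from 22Rv1, an established human prostate carcinoma line. The control group (2 libraries) has a wild-type genotype label and sgGFP in its library names, and the knockout group (2 libraries) has a CD276 knockout genotype and sgCD276 in its library names. The gene's product, B7-H3, is a cell-surface member of the B7 group of immune regulators. All 4 libraries were poly(A)-selected RNA of cells grown in RPMI medium with fetal bovine serum. The sources used here do not say whether the knockout cells were a single clone or a pool, or whether replicates were separate cultures, so p-values reflect only how these libraries spread, which may be technical.

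Neuroendocrine cells store peptides in dense-core granules. Granins such as chromogranins and secretogranins condense in the trans-Golgi network and carry prohormones into these granules, convertases and carboxypeptidases trim the cargo, and synaptotagmins and SNARE proteins control its release. In prostate cancer, granin and synaptophysin staining is used to recognise neuroendocrine differentiation. Transcription factors including INSM1, FOXA2 and ONECUT2 are known from that state, and the repressor REST silences many granule and neuronal genes outside it. The study as a whole concerns DNA methylation and B7-H3 as targets in prostate cancers that lack RB1 or are neuroendocrine, and the comparison asks how gene expression in this line differs with CD276 knocked out.

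The named rows summed to between 20079050 and 25802417 counts per library. The targeted gene CD276 was at 1058 and 1054 counts in the controls against 621 and 679 in the knockouts (log2 fold change -1.03 ± 0.16, SE), so its transcript was lower in the libraries labelled knockout but still present. Without control replicate 3 its adjusted p was 0.0812. The groups differed widely: 22.8% of the 18043 genes tested were called in edgeR's quasi-likelihood test (Benjamini-Hochberg adjusted p under 0.05), 9.87% higher and 12.9% lower in the knockout. The share of counts from the mitochondrial genome was also lower, at 5.84% and 6.15% in the controls against 1.46% and 1.78% in the knockouts. A fit of nuclear protein-coding genes alone leaves these counts out. There the log2 fold change was -2.00 for SCG2, -1.50 for CHGA, -0.92 for ONECUT2 and 0.79 for SYT4, all called. The part of this shift in the results below was otherwise not tested. Prostate luminal markers were present in every library. They summed to 3229 and 3072 normalized CPM (counts relative to the scaled library total) in the controls against 2386 and 2891 in the knockouts. KRT8 was the largest part in every library, at 1247 and 1147 in the controls against 661 and 1110 in the knockouts. KRT18 was at 854 and 801 against 438 and 593. The lowest was TMPRSS2, at 6.45 and 5.11 against 6.74 and 10.5. The lower sum does not stand for the whole list, whose median log2 fold change was 0.012. Leukocyte markers summed to between 1.18 and 2.91 normalized CPM, with CD3E and MS4A1 at 0 in every library. Fibroblast markers summed to 60.7 and 54.4 in the controls against 34.5 and 47.9 in the knockouts, most of it COL1A1. Of the 8 fibroblast markers 5 were tested, COL1A1 fell (-1.001 ± 0.21), LUM rose (0.84 ± 0.21) and 3 were not called, while PDGFRA, PDGFRB and FAP did not pass the filter. Of the 11 luminal markers SLC45A3 (1.04 ± 0.16) and CDH1 (0.49 ± 0.15, a call lost under 6 of 15 alternatives) rose, KRT18 fell (-0.68 ± 0.19) and 8 were not called. The part of these markers in the results below was not tested.

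Among the members, 3 fell in the knockout libraries (SCG2, CHGA and ONECUT2), 1 rose (SYT4) and 2 were not called (CHGB and SYP). The 4 calls among 6 tested members stand beside 22.8% called among all genes tested. The genes were proposed with earlier results of these data known, so this share is a description. The granule genes did not move as a block: 2 granins fell while the third tested was not called, and a synaptotagmin rose while synaptophysin was not called. In RNA of whole cultures, fewer cells expressing a gene and less RNA per cell cannot be told apart.

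The levels of the members ranged from well expressed to not detected. Per kilobase of exon, so that genes of different length can be compared, SYP had the highest mean level in the controls (28.0 normalized CPM per kb), followed by CHGB (22.0), SYT4 (12.0), ONECUT2 (3.98), SCG2 (3.76), CHGA (1.24), SCG5 (0.120), INSM1 (0.0237), PROX1 (0.0100) and FOXA2, which had 0 counts. In the controls the libraries of SYP and CHGB did not overlap in level, nor did those of CHGB and SYT4. ONECUT2 (3.85 and 4.11) and SCG2 (3.77 and 3.74) were close neighbours. In the knockouts the order at the top was no longer separated: SYP was at 21.2 and 22.8, SYT4 at 19.5 and 23.4 and CHGB at 16.2 and 20.2 normalized CPM per kb, so that SYT4 overlapped both of the others. The ratio of SYP to SYT4 per length was 2.24 and 2.42 in the controls against 1.09 and 0.976 in the knockouts.

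**Figure D1:**
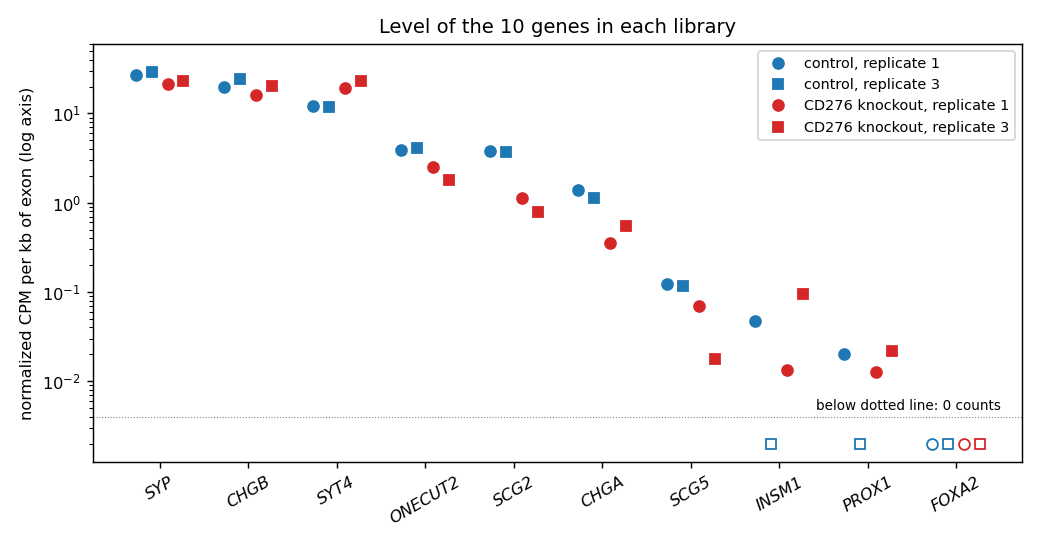
Normalized CPM per kilobase of exon (log axis) of the 10 genes in each library, ordered by the control mean, with controls in blue and CD276 knockouts in red; circles are replicate 1 and squares replicate 3. Open symbols under the dotted line are libraries with 0 counts, which include all 4 of FOXA2; SCG2, CHGA and ONECUT2 lie lower and SYT4 higher in both knockout libraries.

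SCG2, which encodes secretogranin II, the precursor of the peptide secretoneurin, had the largest difference of the tested members. The gene lies on chromosome 2 (223596940 to 223602503, minus strand, GRCh38) with no exon annotated as shared. Its counts were 229 and 197 in the controls against 81 and 55 in the knockouts, or 10.3, 10.2, 3.08 and 2.13 normalized CPM in that order. The controls were nearly equal and both knockouts lay far below them. The level fell from 10.2 ± 0.0596 to 2.61 ± 0.678 normalized CPM (SD, n = 2 libraries per group). Its log2 fold change was -1.97 ± 0.26 (edgeR adjusted p = 0.00380), which is 3.91-fold lower. SCG2 was the 1 member whose call held with each library left out in turn (log2 fold change -2.25 to -1.66).

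CHGA, which encodes chromogranin A, the granin used most as a tissue and serum marker of neuroendocrine tumours, also fell but from a low level. It lies on chromosome 14 (92923080 to 92935293, plus strand) with no shared exon. The controls had 95 and 67 counts and the knockouts 29 and 44; the exact Poisson 95% intervals of these counts, which cover counting error only, were 76.9 to 116, 51.9 to 85.1, 19.4 to 41.7 and 32.0 to 59.1. The intervals of control replicate 3 and knockout replicate 3 overlap, although the measured levels of the groups do not. In normalized CPM the libraries were at 4.25 and 3.46 against 1.10 and 1.70, and the mean fell from 3.86 ± 0.562 to 1.40 ± 0.422, a log2 fold change of -1.46 ± 0.35 (95% interval -2.26 to -0.66, edgeR adjusted p = 0.0211). The call was lost without control replicate 1 (-1.30, adjusted p = 0.254) and without control replicate 3 (-1.60, adjusted p = 0.108), and the cause was not tested.

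CHGB, which encodes chromogranin B, was the most abundant granin among the members and was not called. It lies on chromosome 20 (5911430 to 5925361, plus strand). Its counts were 2002 and 2127 in the controls against 1926 and 2371 in the knockouts, or 89.7, 110, 73.3 and 91.7 normalized CPM. Knockout replicate 3 lay above control replicate 1, so the groups overlapped. The log2 fold change was -0.27 ± 0.17 (edgeR adjusted p = 0.258) with a 95% interval of -0.65 to 0.10. That interval lies wholly above that of SCG2 (-2.57 to -1.37) and, narrowly, that of CHGA. Per length, CHGB exceeded CHGA 14.4- and 21.7-fold in the controls and 45.4- and 36.9-fold in the knockouts. It exceeded SCG2 5.24- and 6.47-fold in the controls and 14.3- and 25.9-fold in the knockouts. The log2 fold change of CHGB was -0.37 without knockout replicate 3, -0.11 without knockout replicate 1 and -0.17 when scaled by library totals.

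SCG5, which encodes 7B2, the chaperone of the convertase PC2, was too low to judge. Its counts were 6 and 5 in the controls against 4 and 1 in the knockouts. Tested without the filter on low counts, its log2 fold change was -1.38 ± 1.18 (edgeR adjusted p = 0.531). A small part of its exonic bases (0.501%) is shared with AC123768.1 on the opposite strand.

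SYP, which encodes synaptophysin, a membrane protein of small synaptic-like vesicles, was at the highest per-length level of the members. It lies on chromosome X (49187804 to 49200259, minus strand), with 1.30% of its exonic bases shared with the opposite-strand gene SYP-AS1, which had 4 counts in each control and 0 in each knockout. SYP counts were 3172 and 2915 in the controls against 2906 and 3075 in the knockouts, or 142 and 150 against 111 and 119 normalized CPM. Both knockouts lay below both controls by less than the change of the called members. The log2 fold change was -0.35 ± 0.13 (unadjusted 95% interval -0.66 to -0.04), and the edgeR adjusted p of 0.0903 missed the threshold. The value was -0.29 without knockout replicate 1, -0.33 without knockout replicate 3 and -0.21 once GC content and transcript length were offset.

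SYT4, which encodes a synaptotagmin found on dense-core granules and Golgi-derived vesicles, moved in the other direction. It lies on chromosome 18 (43267878 to 43277650, minus strand) and shares no annotated exon. Its counts were 1203 and 1027 in the controls against 2270 and 2682 in the knockouts, or 53.9 and 53.0 against 86.4 and 104 normalized CPM. The controls were almost equal, and the lower knockout library was well above both. The mean rose from 53.4 ± 0.601 to 95.1 ± 12.2 normalized CPM, or 1.78-fold (log2 fold change 0.83 ± 0.15, edgeR adjusted p = 0.00774). The value was 0.64 once GC content and transcript length were offset, and the call was kept (edgeR adjusted p = 0.0144). Without control replicate 1 or 3 the log2 fold change was 0.84 or 0.82, but the adjusted p was 0.144 or 0.118.

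ONECUT2, a homeodomain factor of hepatic, pancreatic and neural development, was the 1 lineage factor among the members with enough counts to test, and it fell. It lies on chromosome 18 (57435685 to 57491297, plus strand) and its annotated exons sum to 16234 bases, so its 1397 and 1291 control counts and 1065 and 759 knockout counts correspond to a moderate level per length. In normalized CPM the controls were at 62.6 and 66.7 and the knockouts at 40.6 and 29.3. Both knockouts lay below both controls, and knockout replicate 3 was the lower. The mean fell from 64.6 ± 2.89 to 34.9 ± 7.93 (log2 fold change -0.89 ± 0.18, edgeR adjusted p = 0.0119). The adjusted p was 0.1045 without control replicate 1 and 0.116 without control replicate 3. The related ONECUT1 and ONECUT3 had at most 3 and 7 counts in any library.

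FOXA2, PROX1 and INSM1 could not be judged. FOXA2, a pioneer factor of foregut endoderm, had 0 counts in every library, and a count of 0 allows up to 3 counts (a one-sided limit, unlike the 2-sided intervals given for CHGA), or 0.114 to 0.155 normalized CPM depending on the library. LINC00261, the long non-coding RNA next to FOXA2, also had 0 counts throughout. Both share exonic bases with AL121722.1 on the same strand (2.69% for FOXA2 and 86.1% for LINC00261). The sources used here do not say how reads of shared bases were counted. PROX1, a homeodomain factor of lymphatic, hepatic and neural cells, had 4 and 0 counts in the controls against 3 and 5 in the knockouts, and its opposite-strand partner PROX1-AS1 had 0 in all 4. INSM1, a zinc finger factor used as a nuclear neuroendocrine marker, had 3 and 0 counts in the controls against 1 and 7 in the knockouts. The groups overlapped for both genes. Without the filter, PROX1 and INSM1 had edgeR adjusted p of 0.759 and 0.684. Any difference in these genes was not detectable at this depth.

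**Figure D2:**
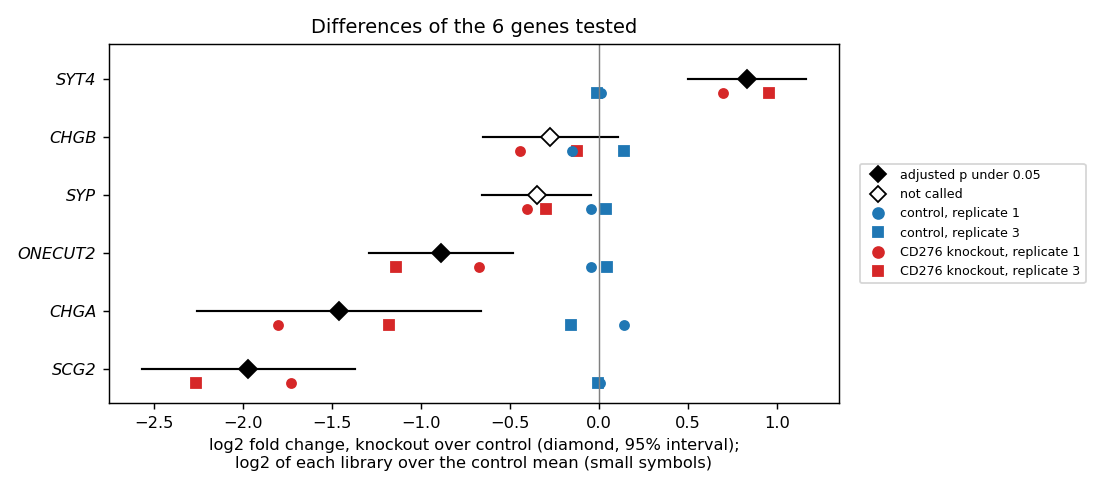
Log2 fold change of knockout over control for the 6 members tested (diamonds, filled where the adjusted p was under 0.05) with the unadjusted 95% interval, above the log2 level of each library over the control mean (blue controls, red knockouts). SYT4 lies at 0.83, CHGB and SYP at -0.27 and -0.35, and ONECUT2, CHGA and SCG2 at -0.89, -1.46 and -1.97.

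Of the 6 members tested, 5 had both knockouts on one side of both controls (CHGB was the exception), as had 65.9% of all genes tested. SYT4 was the 1 separated upward, beside 31.8% of all genes, and SCG2, CHGA, ONECUT2 and SYP were the 4 separated downward, beside 34.1%. On the log2 scale the 2 knockout libraries lay further apart than the 2 controls for each of these 6. Across all genes tested the SD of the difference between replicates (log2 CPM) was 0.377 in the controls and 0.581 in the knockouts. SCG2 and ONECUT2 were lowest in knockout replicate 3, and CHGA in knockout replicate 1.

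The promoters of the called members are shown because these genes, all granule- or lineage-related, moved in opposite directions. RefSeq promoter windows on GRCh38.p14 (250 bases before to 50 after the start) were found for 5 of the 10 members, CHGA, SCG5, SYP, SYT4 and ONECUT2. CHGB, SCG2, FOXA2, PROX1 and INSM1 were not matched. A cyclic AMP response element (CRE) is the palindrome TGACGTCA and its core is TGACG, which also lies within each CRE; both strands were searched. The stretches below run 5′ to 3′ on the gene's strand, with CRE and core matches in capitals.
CHGA (lower in the knockouts), chr14:92923050-92923149, plus strand, the 100 bases before the start: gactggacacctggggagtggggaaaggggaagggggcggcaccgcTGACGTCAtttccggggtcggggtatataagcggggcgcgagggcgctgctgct
SYT4 (higher in the knockouts), chr18:43277491-43277590, minus strand, the 100 bases before the start: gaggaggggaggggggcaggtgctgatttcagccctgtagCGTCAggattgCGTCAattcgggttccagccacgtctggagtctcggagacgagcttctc
ONECUT2 (lower in the knockouts), chr18:57435124-57435223, plus strand, bases -250 to -151 from the start: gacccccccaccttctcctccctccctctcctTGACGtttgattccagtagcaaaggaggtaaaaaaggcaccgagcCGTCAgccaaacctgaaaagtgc

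CHGA holds a full CRE at -54 to -47, which 1.85% of 35116 promoter windows of the same length hold. SYT4 holds a pair of cores on the reverse strand, at -60 to -56 and -49 to -45, and ONECUT2 holds cores at -218 to -214 and -173 to -169; 24.6% of windows hold at least 1 core. SCG5 holds a core at -17 to -13, and no core was in the SYP window. SYT4 also holds ATCAAT, the core letters of an ONECUT site, on the reverse strand at -163 to -158, as do 6.26% of windows on either strand. The left part of the REST element RE1 (TTCAGCACC, in 0.376% of windows) was in none of the 5 windows, and the right part (GGACAG, in 20.5%) was in ONECUT2 at 12 to 17 after the start. The letters TATAAA (11.5% of windows) and the forkhead core TGTTTAC (3.42%) were in none of the 5. Only exact letters were searched, so near variants, such as tatataa in the CHGA stretch above, were not counted. RefSeq starts are not the GENCODE starts given above, and these matches describe letters only. CHGA, with a full CRE, fell, and of the called members with cores only SYT4 rose and ONECUT2 fell.

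The lists that follow hold other genes of the pathway. Of their called genes refitted with each library left out, CPE and the member SCG2 kept their calls throughout. RAB3D and ARFIP1 lost theirs without control replicate 1, and the others lost theirs without either control (PTPRN2, SYT5 and VPS52 were not refitted singly). The counts of each list stand beside 22.8% called among all genes tested (9.87% higher, 12.9% lower), and no share is read as particular to a list. The list of 7 granins and related cargo held 6 tested genes, of which SCG2 and CHGA fell and 4 were not called (CHGB, SCG3, VGF and PCSK1N), with a median log2 fold change of -0.40 beside -0.0045 over all genes. SCG3, the granin that tethers chromogranin A to the granule membrane, stood at 68.5 and 65.2 normalized CPM in the controls against 56.3 and 70.8 in the knockouts, and the groups overlapped (log2 fold change -0.07 ± 0.15). Its sign was opposite when scaled by library totals (0.030) and without knockout replicate 1 (0.095). VGF, a nerve growth factor-inducible granin precursor, had 32890 and 36411 counts in the controls against 30573 and 35304 in the knockouts, far more than any member. In normalized CPM it was at 1473 and 1880 against 1164 and 1365 (log2 fold change -0.41 ± 0.21, edgeR adjusted p = 0.181). The value was -0.013 once GC content and transcript length were offset and -0.22 without control replicate 3. It was -0.29 without knockout replicate 1 and -0.46 without knockout replicate 3.

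Among the listed genes that process prohormones, both carboxypeptidases rose. CPE, carboxypeptidase E, which removes basic residues after convertase cleavage and acts as a sorting receptor in granules, stood at 21.7 and 24.2 normalized CPM in the controls against 69.1 and 63.9 in the knockouts. Its groups were far apart (log2 fold change 1.53 ± 0.15, edgeR adjusted p = 0.00205), and it kept its call with each library left out. CPD, carboxypeptidase D of the trans-Golgi network, rose from 21.9 ± 0.367 to 45.7 ± 7.47 normalized CPM (1.06 ± 0.17). Of the 8 genes of the list 6 were tested, these 2 rose and 4 were not called, with a median of 0.61. The convertase genes of regulated secretion were near the floor: PCSK1 had 4 counts in each control and 2 in each knockout, and PCSK2 had 2 and 1 in the controls with 0 in both knockouts. FURIN, the convertase of the constitutive pathway, was at 196 ± 17.4 and 233 ± 12.5 normalized CPM and was not called.

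Of 33 genes of the granule membrane and exocytosis 27 were tested, 4 rose (SYT4 included), 2 fell and 21 were not called, with a median of 0.13, so that the called share was close to that of all genes. RAB3D, a granule-associated GTPase of exocrine and endocrine cells, rose from 15.1 ± 1.34 to 32.5 ± 3.59 normalized CPM (1.11 ± 0.17 on the log2 scale); genes on the opposite strand overlap 23.8% of its exonic bases and may contribute to its counts. RAB27B, a GTPase of granule docking, rose from 7.95 ± 0.799 to 14.2 ± 3.84 (0.84 ± 0.24, or 0.55 without knockout replicate 1). SYT1, the calcium sensor of fast release, fell from 27.5 ± 1.61 to 15.4 ± 2.33 (-0.84 ± 0.18), opposite to SYT4. PTPRN2, a granule membrane phosphatase-like protein (0.64 ± 0.20, edgeR adjusted p = 0.0491), and SYT5 (-0.73 ± 0.22, edgeR adjusted p = 0.0419) were also called, near the threshold. Both are named after their values were seen. This list had 3 genes called higher with upper quartile scaling, DESeq2, limma voom, nuclear coding genes alone or a 50-count minimum. It had 5 with library totals or no filter and 6 with GC and length offsets. SYT11, the closest relative of SYT4, did not pass the filter, with 7 and 4 counts in the controls against 10 and 27 in the knockouts. The SNARE gene SNAP25 was level, at 31.5 ± 1.67 and 31.5 ± 5.24 normalized CPM. It too is named after its values were seen.

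Of 14 genes of granule biogenesis, all tested, 3 rose, 1 fell and 10 were not called, with a median of 0.13. ARFIP1, which binds ARF and ARL1 GTPases at the trans-Golgi network, rose from 14.1 ± 1.62 to 33.3 ± 2.79 normalized CPM (1.24 ± 0.17). RAB2A, a Golgi GTPase, rose (0.48 ± 0.13) and PICK1, a BAR domain protein of immature granules, fell (-0.50 ± 0.13). Neither kept its call once GC content and transcript length were offset, RAB2A also lost it among nuclear coding genes and PICK1 when scaled by library totals. The third gene to rise, VPS52 (0.53 ± 0.16, edgeR adjusted p = 0.0425), is named after its values were seen. Opposite-strand genes overlap 14.9% of its exonic bases. This list had 4 genes called higher with library totals or no filter, 2 with limma voom and 1 among nuclear coding genes.

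**Figure D3:**
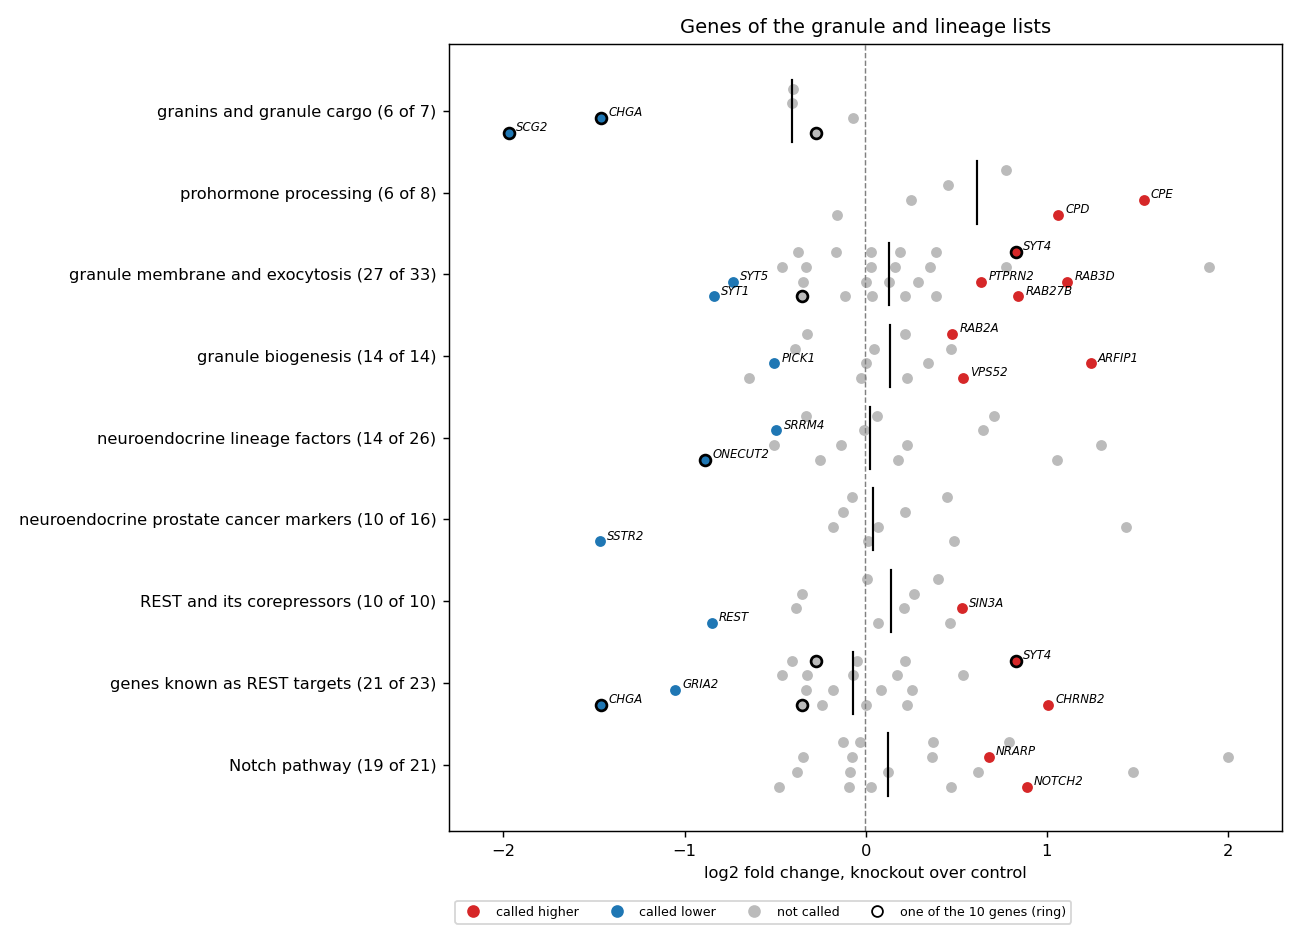
Log2 fold change of knockout over control for each tested gene of 9 lists (tested of listed in parentheses), coloured by call. The 6 tested members are ringed, a black bar marks the list median and a dashed line the median of all genes. Vertical position within a list only spreads the points. SCG2 and CHGA lie at the left end of the granin list, and CPE at the right end of the processing list.

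ONECUT2 was 1 of 2 called in the list of lineage factors. Of 26 neuroendocrine lineage factors 14 were tested, ONECUT2 and SRRM4 fell and 12 were not called, with a median of 0.026. SRRM4, the splicing factor that produces neural exons and a truncated REST, fell from 278 ± 0.503 to 197 ± 11.4 normalized CPM (-0.49 ± 0.14). Its call was lost when scaled by library totals (adjusted p = 0.0873) and without either control. NEUROD1 had at most 2 counts and MYCN at most 10 in any library. NKX2-1 was at 5.95 ± 0.522 and 5.001 ± 2.44 normalized CPM and was not called.

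REST also fell. REST, the zinc finger repressor of neuronal genes, stood at 66.0 and 60.1 normalized CPM in the controls against 40.3 and 29.7 in the knockouts, with both knockouts below both controls and replicate 3 the lower. The log2 fold change was -0.85 ± 0.18 (edgeR adjusted p = 0.0131), and the adjusted p was 0.179 and 0.0853 without control replicates 1 and 3. Of 10 genes of REST and its corepressors, SIN3A, a scaffold of the histone deacetylase complex, rose (0.53 ± 0.16, a call lost among nuclear coding genes), REST fell and 8 were not called. Of 23 genes known as REST targets 21 were tested, 2 rose, 2 fell and 17 were not called, with a median of -0.07. The 4 called were SYT4 and the nicotinic receptor subunit CHRNB2 (1.007 ± 0.19), which were higher, and CHGA and the glutamate receptor subunit GRIA2 (-1.05 ± 0.19), which were lower. These 4 calls among 21 are a share near that of all genes.

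Of 16 other markers of neuroendocrine prostate cancer 10 were tested, SSTR2 fell and 9 were not called, with a median of 0.04. SSTR2, the somatostatin receptor used for imaging neuroendocrine tumours, stood at 4.21 and 3.87 normalized CPM in the controls against 1.52 and 1.39 in the knockouts, and its log2 fold change of -1.47 ± 0.31 is close to that of CHGA. ENO2, neuron-specific enolase, was at 283 ± 12.1 and 259 ± 69.3 normalized CPM, and the groups overlapped. Its log2 fold change was -0.36 without knockout replicate 3 and 0.14 without knockout replicate 1. PEG10, a retrotransposon-derived gene, was at 633 and 685 in the controls against 987 and 812 in the knockouts and was not called (0.45 ± 0.18, edgeR adjusted p = 0.101). It was called higher by DESeq2 (adjusted p = 0.0369) and with no filter on low counts (edgeR adjusted p = 0.0422). Its value was 0.28 once GC content and transcript length were offset, and at most 0.65 under any alternative. NCAM1 had at most 5 counts in any library.

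Of 21 genes of the Notch pathway, which opposes neuroendocrine fate in many epithelia, 19 were tested, 2 rose and 17 were not called, with a median of 0.12. The receptor NOTCH2 (0.89 ± 0.22) and the feedback regulator NRARP (0.68 ± 0.17) were the 2. Of 11 luminal lineage factors 10 were tested and ETV1 (0.70 ± 0.19) was the 1 called, with a median of 0.043. FOXA1, the forkhead factor of luminal prostate cells and a paralog of FOXA2, was at 196 ± 15.4 and 254 ± 50.8 normalized CPM (0.37 ± 0.17, edgeR adjusted p = 0.146). Its value was 0.17 without knockout replicate 1 and 0.63 without knockout replicate 3. The line thus had FOXA1 at a high level and FOXA2 at 0 counts in both groups.

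**Figure D4:**
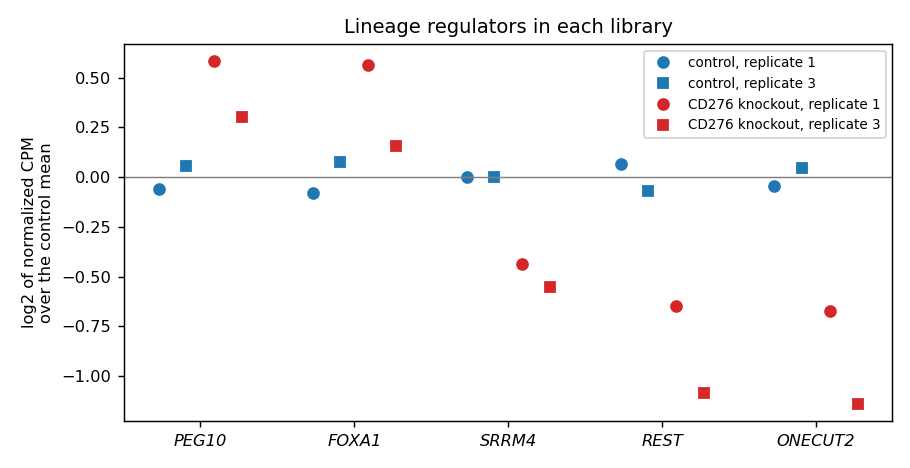
Log2 of normalized CPM over the control mean for 5 genes, 4 lineage regulators and the tumour marker PEG10, in each library (blue controls, red CD276 knockouts; circles replicate 1, squares replicate 3). ONECUT2 and REST lie lower in both knockouts and lowest in replicate 3, while PEG10 and FOXA1, neither called, lie higher in both.

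The genes whose 4 values lay nearest to those of a member were found by Euclidean distance between log2 CPM values, each centred on the gene's own mean, among 13804 other protein-coding genes. They were sought for the members with at least 50 counts in every library. The nearest genes were GPR137C and AQP1 for SCG2, NTN4 and KLF11 for SYT4, CCAR1 and TRIM56 for ONECUT2, MED19 and ST3GAL2 for CHGB, and IK and PANK4 for SYP, with distances of 0.0118 to 0.134 on the log2 scale. AQP1, a water channel, stood at 21.7 and 19.6 normalized CPM in the controls against 6.05 and 4.60 in the knockouts, the same order of libraries as SCG2. The minimum of 50 counts was set for the members, not for their neighbours. NTN4 had only 14 and 12 counts in the controls against 28 and 33 in the knockouts and was not called. With 4 libraries, many genes share a pattern, so these neighbours are a description.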

How the data were processed

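RNA of 22Rv1 cells was sequenced as paired-end reads from poly(A)-selected libraries, per the labels' protocols. The authors deposited raw counts per gene for the 4 libraries. The tools listed are STAR 2.5.2b, Trimmomatic 0.36 and Subread 1.5.2 with its featureCounts, and the build is GRCh38, per the submitters' processing notes. The sources used here do not give how strand and multi-mapping reads were handled or which annotation was counted, so reads of opposite-strand neighbours cannot be told apart.

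The 486 of 57500 rows without a gene name (0.0191% to 0.0290% of counts) were left out. The counts were filtered with filterByExpr (minimum count 10), scaled by TMM (factors 0.962 to 1.075) and compared in R 4.3.3 by the quasi-likelihood test of edgeR 4.0.16 (glmQLFit, robust; glmQLFTest), with a group term alone and 2 residual degrees of freedom; Benjamini-Hochberg adjustment covered every gene tested, at a threshold of 0.05. The SE is the log2 fold change over the square root of F. The biological coefficient of variation was 0.158, and before TMM scaling 1 CPM stood for 20.1 to 25.8 counts. Exon lengths, positions (1-based) and overlaps came from GENCODE 29. A member was too low to judge if the filter removed it.

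Named genes were the 10 members, CD276, regulators and granule genes given by name, up to 3 called genes of each list with the smallest p, genes sharing exons with a member, and the pattern neighbours; exceptions are marked. Some genes the lists first held are not reported here and were left out of the list counts, though not of the fit. The members, lists and tests were chosen with earlier results of these data known. The fit was tested on counts simulated from the means and library sizes of these data (200 changed genes, 17893 to 17938 genes tested). Recovery was 4.5% for a fold of 1.5, 66.5% for a fold of 2 and 98.0% for a fold of 4. The changed genes were drawn above a minimum mean count, and every gene had the same variation. In the data 22.8% of genes were called, a far larger share than was changed in the simulation. These recoveries therefore do not measure the power of this comparison. Alternatives were RLE, upper quartile and library-total scaling, no filter, a minimum of 50 counts per library in either group, DESeq2 1.42.0, limma 3.58.1 voom, a non-robust fit, a replicate block, each library left out, nuclear protein-coding genes alone, and offsets for GC content and transcript length.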

Additional observations from a re-analysis of the deposited data

How the results depend on the processing

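SCG2 kept its direction and call under all 15 alternatives, and so did CPE; CHGA, SYT4 and ONECUT2 did under 13 of 15 each, the exceptions being the fits without 1 control. With 1 library left out, the lone library of its group takes its spread from the other group, 1 residual degree of freedom is left, and the cause of a lost or gained call was not tested. The log2 fold change then ran from -1.74 to -1.17 for CHGA, -0.41 to -0.11 for CHGB, -2.25 to -1.66 for SCG2, -0.39 to -0.29 for SYP, 0.76 to 0.97 for SYT4 and -1.13 to -0.60 for ONECUT2. The number of members called ran from 1 to 6 and that of all genes from 312 (without control replicate 1; 599 without control replicate 3) to 9198 (without knockout replicate 3; 8713 without knockout replicate 1).

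Leaving out 1 library likewise moved the calls of the lists: 1 to 5 for granins and granule cargo, 1 to 4 for prohormone processing, 0 to 16 for granule membrane and exocytosis, 0 to 10 for granule biogenesis, 0 to 6 for lineage factors, 0 to 6 for neuroendocrine prostate cancer markers, 0 to 7 for REST and its corepressors, 0 to 13 for REST targets, 0 to 10 for the Notch pathway and 0 to 6 for luminal factors. The lowest counts came without a control and the highest without a knockout, as they did for all genes tested. Other settings moved small lists: lineage factors had 1 call with library totals; neuroendocrine prostate cancer markers had 2 calls with library totals or DESeq2 and 3 with no filter or GC and length offsets; the Notch pathway had 4 with no filter and 5 with these offsets; luminal factors had 2 with library totals, no filter or DESeq2; and REST and its corepressors had 1 among nuclear protein-coding genes alone. Over all genes tested, 4121 of 18043 were called with library totals, 4025 of 18043 with DESeq2 and 5353 of 32400 with no filter. With GC and length offsets 4429 of 17849 were called, and 2998 of 13801 among nuclear protein-coding genes alone. No count is read as particular to a list, and the cause was not tested.

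SCG3 changed sign with library totals (0.030) and, over the fits without 1 library, ran from -0.18 to 0.095; ENO2 ran from -0.36 to 0.14. Both were positive without knockout replicate 1. Library totals shifted the median of all genes by 0.11 on the log2 scale and gave 2340 higher and 1781 lower, against 1780 and 2331.

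With the replicate number as a block, the 4 called members kept their calls and 4843 genes were called, while SRRM4 (adjusted p = 0.0574) and CDH1 lost theirs; lineage factors had 1 call, neuroendocrine prostate cancer markers 2 and the Notch pathway 4 with this block. The replicate numbers gave no sign of pairing: the difference between replicates 1 and 3 in the controls and in the knockouts correlated at r = -0.015 across 18043 genes, which are not independent. CHGA, with 29 to 95 counts per library, is the called member whose depth limits precision most.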
